A study of Mus musculus with 6 samples.

Results

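The enzymes described here break down phenylalanine and tyrosine in the liver. They are encoded by Qdpr, Pcbd1, Tat, Hpd, Hgd, Gstz1 and Fah, 7 of the 55487 genes in the count tables, and all 7 had enough reads to be among the 13296 genes tested. The pathway was selected on its log2 changes between the genotypes, measured in these same 6 libraries, so the members' differences are given as a description and carry no p-value. RNA was sequenced from untreated cultured primary hepatocytes of Alb/MDA-9 mice (3 libraries) and of their WT littermates (3 libraries), all on a B6CBAF1 background and on regular chow. Alb/MDA-9 mice came from crosses of heterozygotes with WT and carry a transgene in which an albumin enhancer and core promoter, active in hepatocytes, drive human MDA-9/SDCBP (syntenin, an adaptor protein that binds syndecans) tagged with HA at its C terminus. WT mice carry no transgene. The labels number the libraries but do not say that they came from separate animals or cultures, so a p-value here speaks of the spread among libraries, which may be technical. The human transgene has no entry among the mouse genes analysed here, so its RNA could not be used to check the labels, and mouse Sdcbp did not pass the edgeR test (174.6 ± 5.66 CPM in Alb/MDA-9 and 171.9 ± 6.94 CPM in WT, SD, n = 3).

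Phenylalanine is first hydroxylated to tyrosine, a reaction that consumes the cofactor tetrahydrobiopterin, and the cofactor is restored by the products of Pcbd1 and Qdpr. Tyrosine then loses its amino group (Tat), the keto acid is oxidised to homogentisate (Hpd), the ring is opened (Hgd), the product is isomerised (Gstz1), and fumarylacetoacetate is cleaved to fumarate and acetoacetate (Fah). The pathway runs mainly in hepatocytes, and inherited loss of its later enzymes causes alkaptonuria (Hgd) and forms of tyrosinaemia (Tat, Hpd and Fah). Tat is a classic gene induced by glucocorticoids and by fasting hormones in the liver.

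The difference between the genotypes lay in the middle of the pathway. In Alb/MDA-9 hepatocytes the transcripts of Tat, Hpd and Hgd, which act one after another, were at 0.144, 0.374 and 0.389 of their WT level. The cofactor genes Qdpr and Pcbd1 and the last enzyme genes Gstz1 and Fah were at 0.859, 0.927, 0.831 and 1.03 of it. With edgeR's quasi-likelihood test, fitted over all tested genes with Benjamini-Hochberg adjustment, 3 of the 7 members passed the threshold of 0.05, all lower in Alb/MDA-9 and all by at least 2-fold. Of all tested genes 14.4% passed, 7.09% as lower and 7.35% as higher, and 2.64% were both past the threshold and at least 2-fold lower. The members' share is not evidence, since the same contrast was known when they were picked. The median log2 change of the members was -0.27, against 0.00 for all tested genes.

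**Figure D1:**
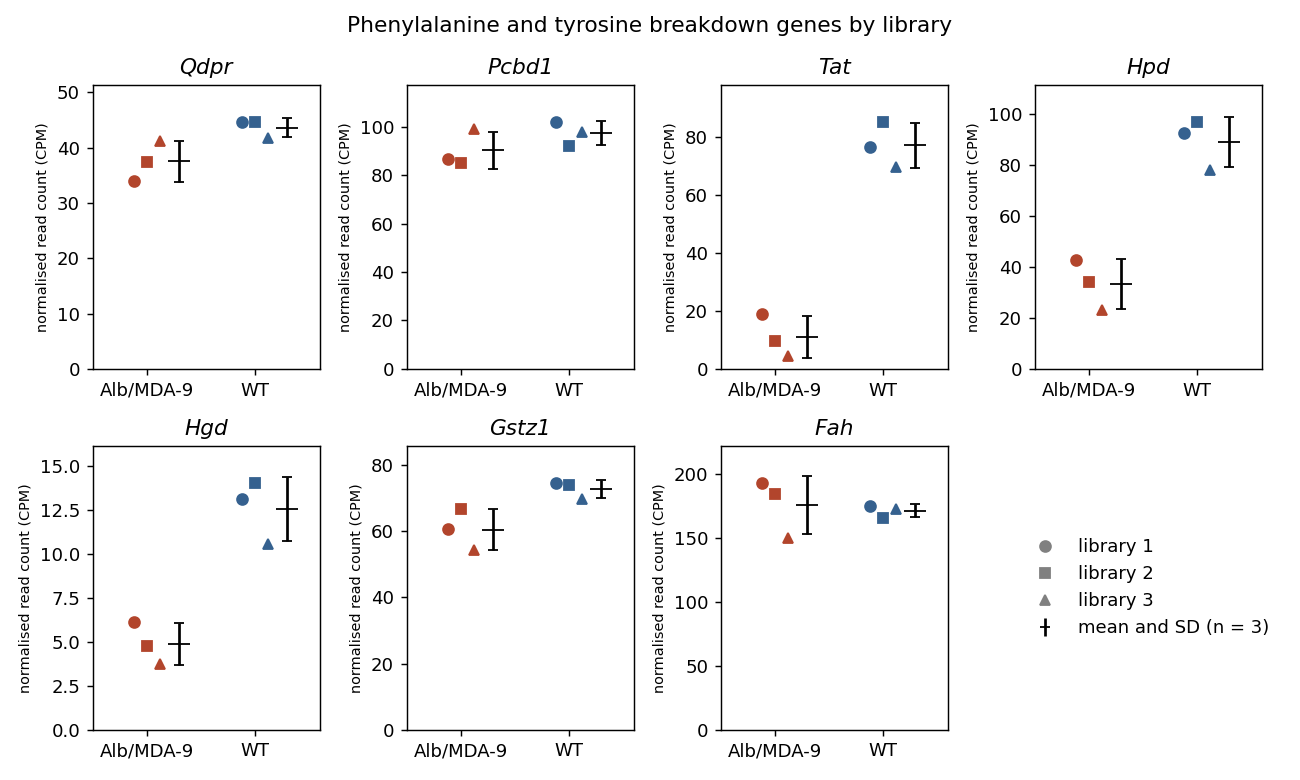
Normalised read counts (CPM, reads scaled to library size with TMM factors) of each member in the 3 Alb/MDA-9 and the 3 WT libraries, with the mean and SD of each group (n = 3) and each vertical axis starting at 0. Tat, Hpd and Hgd sit far below their WT values in Alb/MDA-9, whereas the groups of Pcbd1 and Fah overlap.

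Qdpr (ENSMUSG00000015806, GRCm38 chromosome 5, 45434021 to 45450236, minus strand) encodes quinoid dihydropteridine reductase, which regenerates tetrahydrobiopterin. It had 33.9, 37.4 and 41.2 CPM in Alb/MDA-9 libraries 1, 2 and 3, and 44.6, 44.7 and 41.7 CPM in WT libraries 1, 2 and 3. The groups did not overlap, but the highest Alb/MDA-9 library came close to the lowest WT library. The log2 change was -0.22 (SE 0.09). Pcbd1 (ENSMUSG00000020098, chromosome 10, 61089331 to 61094324, plus strand) encodes pterin carbinolamine dehydratase, which acts just before Qdpr in the cofactor's recycling. It had 86.7, 85.02 and 98.9 CPM in Alb/MDA-9 libraries, and 101.9, 92.1 and 97.8 CPM in WT. The groups overlapped, and the log2 change was -0.11 (SE 0.08).

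Tat (ENSMUSG00000001670, chromosome 8, 109990437 to 109999803, plus strand) encodes tyrosine aminotransferase, the enzyme that commits tyrosine to breakdown. It had 18.8, 9.67 and 4.46 CPM in Alb/MDA-9 libraries, and 76.4, 85.05 and 69.7 CPM in WT. These values stand for 341, 166 and 74 reads in Alb/MDA-9, and for 1513, 1659 and 1178 reads in WT. The lowest WT library lay well above the highest Alb/MDA-9 library, and the Alb/MDA-9 libraries differed among themselves more than for any other member. Their highest value was 4.23 times their lowest, against 1.22 times in WT. The log2 change was -2.80 (SE 0.30), a level 6.95-fold lower in Alb/MDA-9, and 0.361% of all tested genes had a more negative log2 change.

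Hpd (ENSMUSG00000029445, chromosome 5, 123171807 to 123182727, minus strand) encodes hydroxyphenylpyruvate dioxygenase, which forms homogentisate. It had 42.6, 34.2 and 23.1 CPM in Alb/MDA-9 libraries, and 92.4, 96.8 and 77.9 CPM in WT. The groups lay far apart, and the log2 change was -1.42 (SE 0.16), 2.67-fold lower in Alb/MDA-9. Hgd (ENSMUSG00000022821, chromosome 16, 37580153 to 37632020, plus strand) encodes homogentisate dioxygenase, which opens the aromatic ring. It was the least abundant member, with 6.13, 4.78 and 3.73 CPM in Alb/MDA-9 libraries, and 13.1, 14.05 and 10.5 CPM in WT. The groups did not overlap, and the log2 change was -1.36 (SE 0.19), 2.57-fold lower in Alb/MDA-9. Its counts were 111, 82 and 62 reads in Alb/MDA-9, and 260, 274 and 178 reads in WT. More negative log2 changes were found for 1.71% of all tested genes in the case of Hpd and 1.84% in the case of Hgd.

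Gstz1 (ENSMUSG00000021033, chromosome 12, 87147165 to 87164723, plus strand) encodes maleylacetoacetate isomerase, a member of the glutathione transferase family. It had 60.6, 66.7 and 54.2 CPM in Alb/MDA-9 libraries, and 74.7, 73.9 and 69.8 CPM in WT. The groups did not overlap, with a log2 change of -0.27 (SE 0.08). Fah (ENSMUSG00000030630, chromosome 7, 84585159 to 84606722, minus strand) encodes fumarylacetoacetase, the last enzyme. It had 193, 184 and 149.9 CPM in Alb/MDA-9 libraries, and 175, 166 and 173 CPM in WT. The WT libraries lay inside the range of the Alb/MDA-9 libraries, and the log2 change was 0.04 (SE 0.09). Its sign turned when library totals alone (-0.07) or upper-quartile factors (-0.005) were used for scaling. It also turned without Alb/MDA-9 1 (-0.04) or Alb/MDA-9 2 (-0.0007), while the other settings gave positive values. The groups did not overlap for 5 of the 7 members, each time with Alb/MDA-9 lower. Of all tested genes 33.6% had groups that did not overlap, 16.5% with Alb/MDA-9 lower and 17.1% with Alb/MDA-9 higher.

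**Figure D2:**
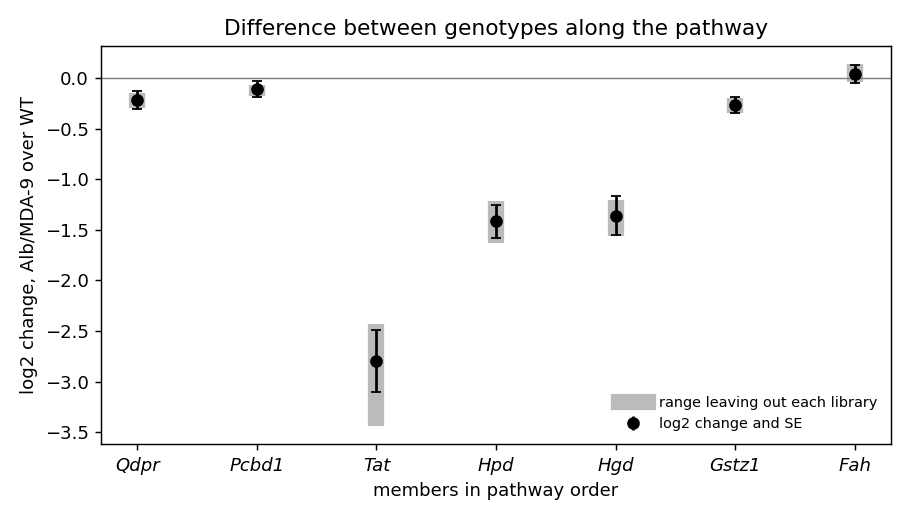
Log2 change of each member, Alb/MDA-9 over WT, in pathway order, with its SE from the edgeR fit and, as a grey bar, the range when each of the 6 libraries was left out in turn. Tat, Hpd and Hgd stay below -1.2 whichever library is left out, and the lowest value of any other member is -0.34, for Gstz1.

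Alb/MDA-9 library 3 stood apart from the others on the second principal component of all tested genes, which held 17.4% of the variance, and it gave the lowest value of Tat, Hpd, Hgd, Gstz1 and Fah. For Qdpr and Pcbd1 it gave the highest Alb/MDA-9 value. Without that library the log2 changes were -2.43 for Tat, -1.22 for Hpd and -1.21 for Hgd. They were -0.29 for Qdpr, -0.18 for Pcbd1, -0.20 for Gstz1 and 0.14 for Fah. The number of members past the threshold was then 4, the added one being Qdpr, as 2386 of 13695 tested genes passed. WT library 3 gave the lowest WT value of Qdpr, Tat, Hpd, Hgd and Gstz1.

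Promoter sequence was examined for the 3 genes that differed most, to see what lies just upstream of them. The 250 bases before each RefSeq start on GRCm38.p6 are printed from the gene's own strand for Tat (chr8:109990186-109990435, plus strand), Hpd (chr5:123182724-123182973, minus strand) and Hgd (chr16:37579903-37580152, plus strand). Capitals mark the letters that matched a searched motif, so a sequence without capitals held none of them.
Tat: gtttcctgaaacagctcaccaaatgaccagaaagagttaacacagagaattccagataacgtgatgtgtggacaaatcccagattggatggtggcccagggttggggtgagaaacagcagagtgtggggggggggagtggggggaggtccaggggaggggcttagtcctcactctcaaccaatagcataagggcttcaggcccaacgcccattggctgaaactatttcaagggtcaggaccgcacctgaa
Hpd: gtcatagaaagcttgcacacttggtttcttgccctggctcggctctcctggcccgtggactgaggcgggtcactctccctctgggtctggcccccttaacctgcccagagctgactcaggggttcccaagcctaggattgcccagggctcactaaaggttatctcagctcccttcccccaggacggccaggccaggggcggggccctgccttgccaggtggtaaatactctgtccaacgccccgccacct
Hgd: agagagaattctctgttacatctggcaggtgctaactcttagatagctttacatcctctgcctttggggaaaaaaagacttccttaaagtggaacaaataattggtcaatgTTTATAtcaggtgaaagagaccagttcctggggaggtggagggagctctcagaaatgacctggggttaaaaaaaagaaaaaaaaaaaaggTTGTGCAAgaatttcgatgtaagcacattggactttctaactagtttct

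The motifs were searched as plain letters on both strands. They included TATAAA (letters of a TATA box), TGTTCT (a core of glucocorticoid receptor sites) and TGACG (a core of cAMP response elements). Also searched were TTGCNNAA (a C/EBP site) and CAAAGTCC (an HNF4 core). Tat and Hpd held none of the searched motifs in their windows. Hgd held TATAAA and TTGCNNAA, which 12.4% and 9.56% of 32851 mouse promoter windows of the same length hold too. Among the other members Qdpr held TTGCNNAA, Pcbd1 held TATAAA, Gstz1 held TGACG and Fah held none. Each of these matches, and both in Hgd, read on the strand opposite to the gene. The TATAAA match lay at -139 from the start in Hgd and at -250 in Pcbd1. These letters alone do not show a working TATA box. TGTTCT was present in 0 of the 7 windows and in 16.1% of all windows, and no matches overlapped. Only these windows were searched, so sequence farther upstream or within the genes was not examined. The absence of TGTTCT from a window therefore does not show that a gene, Tat included, lacks glucocorticoid receptor sites. The windows of Tat, Hpd and Hgd held 3, 7 and 1 CG dinucleotides, those of Qdpr, Pcbd1, Gstz1 and Fah 21, 6, 13 and 16, and the median of all windows was 6. Pcbd1 therefore had fewer than Hpd. The RefSeq start used for Fah lies 780 bases from the outermost GENCODE start of the gene, and those of the other members lie within 7 bases.

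Levels of different genes were compared as CPM per kilobase of merged annotated exons, which counts every annotated exon, used or not (817 bases for Pcbd1 and 5088 for Gstz1). In Alb/MDA-9 the order was Pcbd1 (110 ± 9.28), Fah (79.3 ± 10.3), Qdpr (20.99 ± 2.05), Hpd (15.6 ± 4.59), Gstz1 (11.9 ± 1.23), Tat (4.57 ± 3.03) and Hgd (1.87 ± 0.460) on this scale (mean ± SD, n = 3). The ranges of Qdpr and Hpd, of Hpd and Gstz1, and of Tat and Hgd overlapped there. In WT the order was Pcbd1 (119 ± 6.03), Fah (77.3 ± 2.20), Hpd (41.8 ± 4.64), Tat (32.04 ± 3.20), Qdpr (24.4 ± 0.937), Gstz1 (14.3 ± 0.520) and Hgd (4.81 ± 0.697), and no 2 neighbours in this order had overlapping ranges. Hpd and Tat thus held ranks 4 and 6 in Alb/MDA-9, against ranks 3 and 4 in WT. Hgd was lowest in both genotypes.

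**Figure D3:**
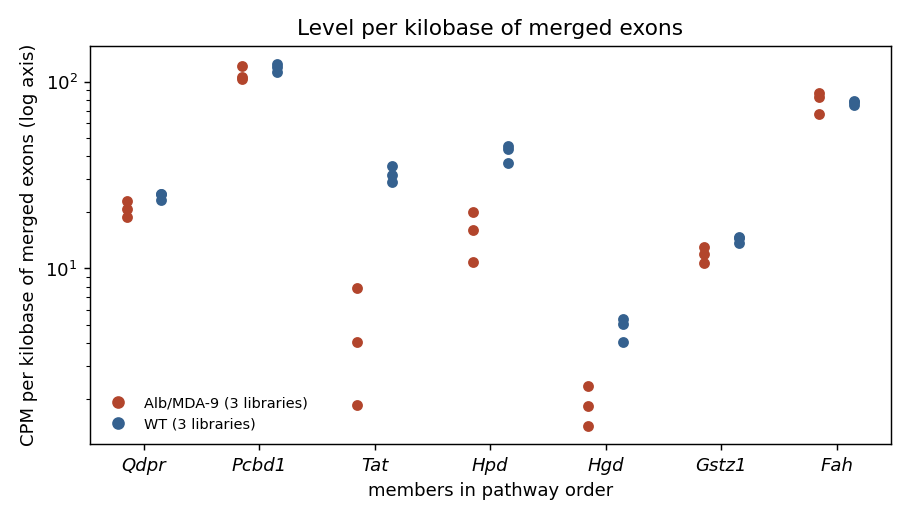
Level of each member per kilobase of merged exons, in CPM per kilobase on a log axis, with 1 point for each of the 3 Alb/MDA-9 and 3 WT libraries. Tat in Alb/MDA-9 overlaps with Hgd and lies below Gstz1, whereas in WT it lies above Qdpr, while Pcbd1 and Fah stay at the top in both genotypes.

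Summed over the members, this length-scaled level was 245 ± 9.06 in Alb/MDA-9 and 314 ± 9.70 in WT (SD, n = 3). Tat made up 1.84% ± 1.16 of the sum in Alb/MDA-9 and 10.2% ± 0.945 in WT, and Hpd 6.36% ± 1.65 in Alb/MDA-9 and 13.3% ± 1.24 in WT. Fah made up 32.3% ± 3.26 in Alb/MDA-9 and 24.7% ± 0.890 in WT. Scaled for length, the ratio of Tat to Hpd was 0.171 to 0.391 in Alb/MDA-9 libraries and 0.731 to 0.791 in WT libraries, without overlap. The ratio of Hpd to Hgd was 7.61 to 8.80 in Alb/MDA-9 and 8.47 to 9.09 in WT, with overlap. Hpd and Hgd thus differed between the genotypes by similar factors, and Tat by more.

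The profile of a gene over the 6 libraries was compared with those of Tat and Hpd by the Euclidean distance between log2(CPM + 0.5) values, each centred on the gene's mean, among 9506 other genes with a mean of at least 5 CPM. Hpd and Hgd belong to a pathway picked on its log2 changes, which enter this distance, so their nearness is a description only. The gene nearest to Hpd was Hgd, at a distance of 0.268. The 5 nearest also held Rrm2 (0.441), a subunit of ribonucleotide reductase, Rgs16 (0.456), a regulator of G protein signalling, and Mt4 (0.471), a metallothionein gene. Rrm2 had 12.5 ± 3.99 CPM in Alb/MDA-9 and 30.7 ± 6.25 CPM in WT (log2 change -1.29, SE 0.20). The gene nearest to Tat was Pck1, at 0.704, which encodes the gluconeogenic enzyme phosphoenolpyruvate carboxykinase. Next came Lxn (1.17), a carboxypeptidase inhibitor gene, Hamp (1.23), the gene of the iron hormone hepcidin, H2-Q7 (1.29), an MHC class I gene whose close paralogues make its count uncertain, and Eno2 (1.45), an enolase gene. The distance from Tat to Hpd was 2.02 and that from Tat to Hgd 2.25.

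**Figure D4:**
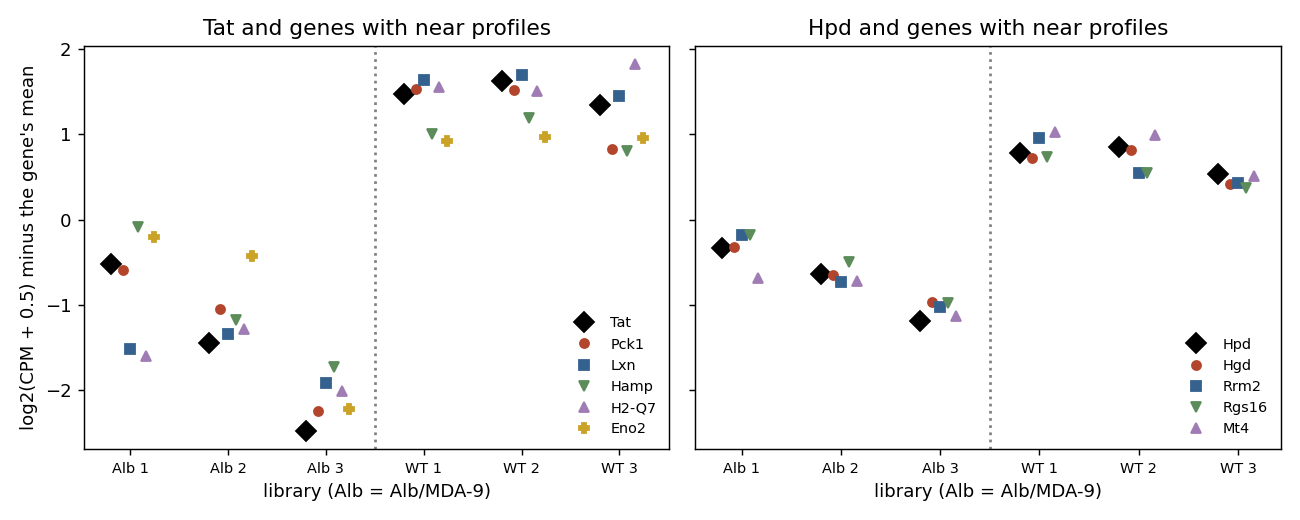
Centred log2(CPM + 0.5) of Tat (left) and Hpd (right), as black diamonds, and of 5 (Tat) and 4 (Hpd) of the 5 genes with the nearest profiles, in each of the 3 Alb/MDA-9 and 3 WT libraries. Hgd follows Hpd closely in all 6 libraries, whereas Lxn and H2-Q7 lie below Tat in Alb/MDA-9 library 1 and above it in library 3.

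Genes beside the members on the chromosomes were read to see whether the differences extended to neighbours. Their distances ranged from 0 kb, for overlapping genes, to 634 kb, for a gene beside Qdpr. Of the 14 nearest tested protein-coding genes, 1 on each side of each member, 0 passed the edgeR test, beside 14.4% of all tested genes. So few genes cannot set 0 apart from that share. Among them 0 passed with DESeq2 and 1 had an unadjusted p under 0.05. Hpd overlaps Psmd9, a proteasome chaperone gene on the opposite strand, which had 26.5 ± 3.19 CPM in Alb/MDA-9 and 24.5 ± 1.21 CPM in WT (SD, n = 3). The genes beside Tat were Marveld3, a tight junction gene with 1.33 ± 0.151 CPM in Alb/MDA-9 and 1.49 ± 0.323 CPM in WT, and Zfp612, a zinc finger gene with 8.66 ± 1.63 CPM in Alb/MDA-9 and 7.17 ± 1.49 CPM in WT. Those beside Hgd were Rabl3, with 15.3 ± 1.605 CPM in Alb/MDA-9 and 14.7 ± 0.216 CPM in WT, and Ndufb4, a respiratory chain subunit gene, with 3.09 ± 0.746 CPM in Alb/MDA-9 and 3.39 ± 1.40 CPM in WT. The genes beside both Tat and Hgd thus overlapped between the groups. The counts used strand, and reads on the opposite strand of a member were at most 1.25% of its reads, the value of Gstz1, whose annotation overlaps Pomt2. Apart from transcripts overlapping them in place, no other annotated transcript matched a member over at least 100 bases at 90% identity or more. Gm26745, a long noncoding RNA annotated across Hpd on the same strand, was not analysed here.

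The genes that supply tetrahydrobiopterin did not pass the test. Of 7, among them Gch1 (the first enzyme of its synthesis), Pts and Spr, 0 passed with edgeR, beside 14.4% of all tested genes. A list of 7 is too short to set 0 apart from that share. In this list 3 genes had an unadjusted p under 0.05, 0 passed with DESeq2 and 2 with limma voom. The list's median log2 change was -0.16. Gch1 had 102, 109 and 108 CPM in Alb/MDA-9 libraries, and 85.0, 95.3 and 93.8 CPM in WT (log2 change 0.22, SE 0.07, edgeR adjusted p = 0.0680). Of 12 tested genes of other enzymes that act on tyrosine or its products, such as Got1, Mif, Ddc and Maoa, 0 passed with edgeR. With 12 genes this too cannot be set apart from the 14.4% of all tested genes. In this list 3 genes had an unadjusted p under 0.05 and 0 passed with DESeq2. The share of all tested genes with an unadjusted p under 0.05 was not counted. Th, the tyrosine hydroxylase gene of catecholamine synthesis, had 0 reads in all 6 libraries, which allows up to 0.151 to 0.181 CPM, the level of 3 reads.

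A list of 6 genes held enzymes that use fumarate or acetoacetate, the end products, or acetoacetyl-CoA in the case of Acat1 and Acat2. With edgeR 2 rose and 0 fell in Alb/MDA-9, beside 7.35% of all tested genes called higher. Bdh1, a ketone body dehydrogenase gene, was called lower in 3 of 15 alternatives (without a low-count filter, with limma voom and without Alb/MDA-9 3). Acat2, a cytosolic thiolase gene, had 51.5, 56.1 and 69.5 CPM in Alb/MDA-9 libraries, and 44.3, 43.5 and 41.3 CPM in WT (log2 change 0.45, SE 0.10, edgeR adjusted p = 0.0109). Oxct1, which encodes the enzyme that activates acetoacetate for use as a fuel, had 27.7 ± 1.14 CPM in Alb/MDA-9 and 21.5 ± 1.28 CPM in WT (log2 change 0.37, SE 0.09, edgeR adjusted p = 0.0184). The Oxct1 call ended without Alb/MDA-9 1, Alb/MDA-9 2, WT 2 or WT 3, where the adjusted p was 0.0513, 0.0508, 0.0758 and 0.0864, and with library totals (0.0767). Fh1, which encodes fumarase, had a log2 change of 0.00 (SE 0.09).

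Of 8 genes of transporters that carry aromatic amino acids, or neutral amino acids in the case of Slc38a4, 3 fell and 0 rose in Alb/MDA-9. Of all tested genes 7.09% were called lower. The median over the list was -0.43 on the log2 scale. Slc7a5, a subunit of a large neutral amino acid exchanger, had 29.01, 32.8 and 22.2 CPM in Alb/MDA-9 libraries, and 39.9, 38.7 and 34.9 CPM in WT (log2 change -0.43, SE 0.12, edgeR adjusted p = 0.0350). Slc16a10, a transporter of aromatic amino acids, had 21.1 ± 3.80 CPM in Alb/MDA-9 and 28.2 ± 2.80 CPM in WT (log2 change -0.42, SE 0.13, edgeR adjusted p = 0.0452). Slc38a4 had 457 ± 14.9 CPM in Alb/MDA-9 and 552 ± 15.7 CPM in WT (log2 change -0.27, SE 0.07, edgeR adjusted p = 0.0186). The falls numbered 1 without Alb/MDA-9 2, 1 without WT 1, 0 without WT 2 and 1 without WT 3, and 2 without Alb/MDA-9 1 or 3.

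Because Tat is known as a glucocorticoid-induced gene, 12 other genes known to respond to glucocorticoids were read as well. Of these 8 fell and 0 rose, and their median was -0.42 on the log2 scale, beside 7.09% of all tested genes called lower. Tdo2, which encodes the first enzyme of tryptophan breakdown, had 25.6, 17.7 and 14.5 CPM in Alb/MDA-9 libraries, and 31.3, 32.8 and 30.6 CPM in WT (log2 change -0.71, SE 0.16, edgeR adjusted p = 0.0108, and 0.0602 without Alb/MDA-9 2). Pck1 had 3.15, 2.15 and 0.662 CPM in Alb/MDA-9 libraries, and 15.4, 15.2 and 9.29 CPM in WT (log2 change -2.73, SE 0.35). G6pc, which encodes the catalytic subunit of glucose-6-phosphatase, had 0.626 ± 0.349 CPM in Alb/MDA-9 and 2.79 ± 0.558 CPM in WT (log2 change -2.13, SE 0.39). Tsc22d3, also called Gilz, had 25.3 ± 1.31 CPM in Alb/MDA-9 and 35.8 ± 1.70 CPM in WT (log2 change -0.50, SE 0.09).

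Tat, Pck1 and G6pc stood apart from the other glucocorticoid-responsive genes in size. The falls of Fkbp5, Per1, Lpin1 and Mt2 lay between -0.49 and -0.27 on the log2 scale. Zbtb16, Klf9, Dusp1 and Igfbp1 did not pass, at -0.18, -0.32, 0.20 and 0.12. Without Alb/MDA-9 3, 8 fell and 2 rose. Many of these genes also answer to insulin, glucagon or fasting, so the list does not single out glucocorticoids.

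**Figure D5:**
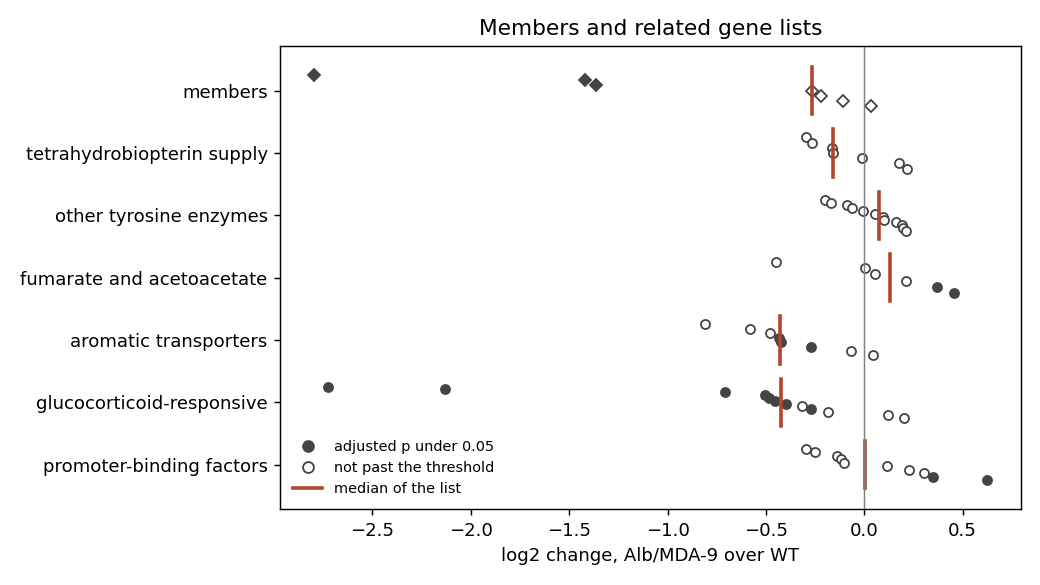
Log2 change, Alb/MDA-9 over WT, of the members (diamonds) and of the tested genes of 6 related lists (circles), with filled symbols for an edgeR adjusted p under 0.05 and a red line at each list's median. Tat, Hpd and Hgd are the only members with filled symbols, and Pck1 and G6pc are the only genes of the other lists below -1.

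Of 10 factors that bind promoters of hepatocyte genes, 2 rose and 0 fell with edgeR, beside 7.35% of all tested genes called higher. Prox1, a factor of early liver development and 1 of those that rose, had 95.3 ± 9.55 CPM in Alb/MDA-9 and 61.9 ± 3.99 CPM in WT (log2 change 0.62, SE 0.09, adjusted p = 0.000514 with edgeR). Nr3c1, the glucocorticoid receptor gene, had 75.2, 78.1 and 60.1 CPM in Alb/MDA-9 libraries, and 86.2, 85.8 and 90.1 CPM in WT (log2 change -0.30, SE 0.09, edgeR adjusted p = 0.0524). It was called lower in 7 of 15 alternatives, among them DESeq2, limma voom and scaling by library totals. Hnf4a and Cebpa did not pass, at -0.10 (SE 0.07) and -0.14 (SE 0.10).

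In bulk RNA, fewer cells of a type and less RNA per cell cannot be told apart. Hepatocyte markers were abundant in every library, with Alb at 55090 to 70170 CPM in Alb/MDA-9 and 54048 to 58379 CPM in WT. Of 9 such markers 2 rose and 0 fell, and their summed level was 89060 to 104378 CPM in Alb/MDA-9 and 84347 to 87413 CPM in WT. Among markers of other liver cells, 7 of 10 Kupffer cell, 4 of 9 endothelial and 5 of 10 stellate cell markers fell and 0 rose. Of all tested genes 7.09% were called lower and 7.35% higher. The Kupffer markers summed to 224 to 386 CPM in Alb/MDA-9 and 394 to 410 CPM in WT. Most of that sum was Cd68, which did not pass (137 to 322 CPM in Alb/MDA-9 and 262 to 284 CPM in WT), and without it the sums were 64.0 to 86.3 CPM in Alb/MDA-9 and 126 to 131 CPM in WT. The endothelial markers summed to 151 to 162 CPM in Alb/MDA-9 and 207 to 224 CPM in WT, and the stellate markers to 205 to 267 CPM in Alb/MDA-9 and 304 to 322 CPM in WT. Without Reln, the most abundant stellate marker, which did not pass, the stellate sums were 98.6 to 107 CPM in Alb/MDA-9 and 161 to 166 CPM in WT. No marker of these 3 lists was at 0 in all libraries. Of 5 tested cholangiocyte markers 3 rose and 1 fell, while Cftr had 0 reads. The list summed to 251 to 360 CPM in Alb/MDA-9 and 52.8 to 60.9 CPM in WT, most of the Alb/MDA-9 sum being Spp1. Without Spp1 the sums were 80.0 to 83.6 CPM in Alb/MDA-9 and 51.4 to 60.1 CPM in WT. The part of these cell types in the members' differences was not tested.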

How the data were processed

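RNA of cultured hepatocytes was sequenced in 3 Alb/MDA-9 and 3 WT libraries, grouped by the labels. Each deposited table holds the authors' raw read counts per gene in STAR's layout, unnormalised, for either strand and for each strand. Per the submitters' processing notes, the tools were STAR 2.7.9a, edgeR 3.18.1, Trim Galore 0.6.6 and FastQC 0.11.2, with GRCm38 and mm10 given as builds; the annotation release is not given in the sources used here. STAR counts reads placed once in 1 gene, so genes with near-identical copies can lose reads. The reverse-strand column was used; it held 96.9% to 97.2% of the stranded reads and 16403918 to 19046739 reads per library. Rows of reads outside single genes (34.2% to 37.5% of all reads) were left out.

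Genes were filtered with filterByExpr (minimum count 10), scaled by TMM and fitted in edgeR 4.0.16 under R 4.3.3 (quasi-likelihood F test) on 4 residual degrees of freedom, without covariates, with Benjamini-Hochberg adjustment over 13296 genes. Values are TMM-scaled CPM, and log2 changes are Alb/MDA-9 over WT with the SE of the fit. DESeq2 1.42.0 and limma 3.58.1 were among the alternatives. Gene names and positions came from GENCODE M21 (55141 of 55487 identifiers), promoters from RefSeq (GRCm38.p6, all 7 members matched), and transcripts were compared with BLAST 2.17.0. Limits for 0 reads cover counting error only.

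The members and lists were chosen with earlier results of these data known. Named genes were the members, up to 4 genes per list past the threshold with a mean of at least 1 CPM and the largest change (otherwise the list's most abundant gene), the 5 profiles nearest to Tat and to Hpd (genes with placeholder names left out), and the nearest tested genes on either side of each member. Other list genes named, and the marker sums without the most abundant marker, were chosen after the values were seen. Some genes and motifs that fall under these rules are not reported here.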

Additional observations from a re-analysis of the deposited data

How the results depend on the processing

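Tat and Hpd were past the threshold in 15 of 15 alternatives and Hgd in all 14 that tested it; the stricter low-count filter dropped Hgd. Gstz1 passed in 6 of 15, Qdpr in 2, Pcbd1 and Fah in 0. Each refit used libraries and the contrast on which the members were picked, so these counts are a description and not evidence. Leaving out each library gave log2 changes of -3.44 to -2.43 for Tat, -1.63 to -1.22 for Hpd and -1.56 to -1.21 for Hgd, and 3 to 4 members past the threshold. Scaling by library totals moved the median of all genes by -0.10 on the log2 scale; with it 5 members passed and Pcbd1 stood at -0.21.

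Of all genes 1920 passed (977 higher, 943 lower), 1256 with the stricter filter and 1018 to 2386 with 1 library left out (1131 without Alb/MDA-9 2, 1168 without WT 1, 1018 without WT 2). Library totals gave 525 higher and 1622 lower, upper-quartile factors 722 and 1087. The cause of these differences was not tested, except that the stricter filter tests fewer genes.

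With library totals 1 gene passed in each of the lists of tetrahydrobiopterin supply, other tyrosine enzymes, and fumarate and acetoacetate, and 1 neighbour (Tmed8). The tetrahydrobiopterin count was 1 with the stricter filter or upper-quartile factors, 2 with limma voom and 0 to 1 with a library left out. Upper-quartile factors also called 1 neighbour. Promoter-binding factors numbered 4 without a low-count filter (3 higher, 1 lower). With a library left out, 1 to 3 fumarate and acetoacetate genes, 0 to 2 transporters, 6 to 10 glucocorticoid-responsive genes and 2 to 3 factors passed.

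With the replicate number as a block, 1601 genes and 3 members passed. Same-numbered libraries did not deviate together (correlations of -0.0343, 0.000721 and -0.0605 across genes), so the numbers were not taken to pair the libraries. Correlations over all genes cannot settle whether the members' values pair. With the block the SE was 0.25 for Tat, 0.11 for Hpd and 0.17 for Hgd, against 0.30, 0.16 and 0.19 without it. The SE was larger with the block for Qdpr (0.10 against 0.09) and Pcbd1. Hgd rested on 62 to 111 reads and Tat on 74 to 341 reads per Alb/MDA-9 library.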
